A study of Caenorhabditis elegans with 20 samples.

Results

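The data described here are the transcript profile of wild-type *Caenorhabditis elegans* on day 1 of adulthood, taken from all 4 samples whose genotype label is wild-type, out of 20 samples of 5 strains in the series. The study asked how breakdown of the branched-chain amino acids leucine, isoleucine and valine bears on ubiquitin-dependent protein degradation, and the wild-type samples were its control for *ivd-1(tm6784)*, *hecd-1(tm2371)*, *bcat-1(hh58)* and *ivd-1(tm6784); bcat-1(hh58)* worms. The wild-type strain derives from Bristol N2, and the study's strains were outcrossed. Worms were synchronized by bleaching gravid adults for their eggs, grown at 20°C on OP50 *E. coli*, and frozen whole, so that every tissue, the germline and any eggs inside the worm went into each RNA sample. The study states that replicates were collected in independent experiments. RNA was poly-A selected, made into stranded libraries and sequenced in paired ends.

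A young adult hermaphrodite makes sperm in its last larval stage, then switches to oocytes, stores the sperm in the spermatheca and fills its uterus with fertilized eggs. Its intestine makes yolk proteins, called vitellogenins, for the oocytes. The epidermis, or hypodermis, renews the collagen cuticle at each larval molt and no longer molts in the adult. The body of an adult has a fixed number of somatic cells, while the germline grows until it is a large part of the animal.

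Expression is given as FPKM, the fragments mapped to a gene scaled to transcript length and to the library's total of mapped fragments. FPKM therefore ranks genes by transcript number rather than by transcript mass, and a short gene reaches a high value from few fragments. The 4 samples summed to 1077359 FPKM in replicate 1, 1097372 in replicate 2, 1118692 in replicate 3 and 1075688 in replicate 4. Read numbers are unknown here, and values are given without intervals for counting error. The most common ratio between replicates among genes under 1 FPKM, which is that of the FPKM of 1 fragment, placed the depth of the other replicates between 0.933 and 1.03 times that of replicate 1, although only 92 to 213 low genes shared that ratio. Of 46284 genes listed, 16380 were above 0 in all 4 replicates, and 26744 were listed at 0 in all 4. Among 19725 protein-coding genes, 15444 (78.3%) were above 0 in all 4 and 1940 were listed at 0 in all 4. A mean of at least 1 FPKM was reached by 12608 genes, of at least 10 FPKM by 7346, of at least 100 FPKM by 1483 and of at least 1000 FPKM by 174. Across the 8986 genes with a mean of at least 5 FPKM and a value above 0 in every replicate, Pearson's r of log2(FPKM + 0.5) between replicates lay between 0.985 and 0.992. These correlations are across genes, which are not independent replicates.

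The profile was carried by few genes. The 10 most abundant held 6.65% ± 0.0898 of the summed FPKM (SD, n = 4), the 100 most abundant 36.4% ± 0.770, and the 1000 most abundant 71.4% ± 0.682. The 212 most abundant genes together held 50% of it. The most abundant transcript was *rpl-41.2*, which encodes a very small protein of the large ribosomal subunit, at 10877, 11090, 11435 and 10765 FPKM in replicates 1 to 4. This gene lies on chromosome I at 4790292 to 4790642 (WBcel235, plus strand) and has 280 exonic bases. Its near-identical copy *rpl-41.1* was listed at 568 ± 23.1 FPKM, and how fragments were divided between such copies was not stated. The next gene, *eef-1A.1*, encodes the elongation factor that brings aminoacyl-tRNA to the ribosome and lies on chromosome III at 6970026 to 6971712. It was at 8527, 8658, 9102 and 8776 FPKM, and its paralog *eef-1A.2* was at 239 ± 19.7 FPKM. With 1537 exonic bases it was the longest gene of the leading 5, since *rps-25*, *rpl-29* and *far-2* have 400, 240 and 612.

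Ribosomal proteins filled most of the top of the ranking. Of the 30 most abundant genes, 24 encoded proteins of the cytosolic ribosome, 4 cuticle collagens, 1 a translation factor and 1 a lipid-binding protein. Among the 100 most abundant, 74 were ribosomal and 13 were collagens. *rps-25* of the small subunit averaged 7520 ± 132 FPKM, *rpl-29* of the large subunit 7338 ± 432, and *rpl-39*, also of the large subunit, 6598 ± 194. *far-2*, which encodes a fatty acid and retinol binding protein of a nematode family, was the fifth gene at 6479, 6840, 6781 and 6660 FPKM. The collagen *col-124* was the ninth at 5786, 6151, 6330 and 6012 FPKM, and *col-119*, *col-140* and *col-122* followed at 4937 ± 151.6, 4832 ± 142.3 and 4779 ± 139 FPKM. Of the 29 pairs of neighbours within the leading 30, 24 differed in mean by less than the larger SD of the pair, so the order of most neighbours was within the spread between replicates. The coefficient of variation of these 30 genes lay between 1.76% and 6.18%. Replicate 3 was the highest sample for 27 of them and replicate 2 for the other 3, where replicate 3 was the highest for 25.1% of the 8986 genes above.

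**Figure D1:**
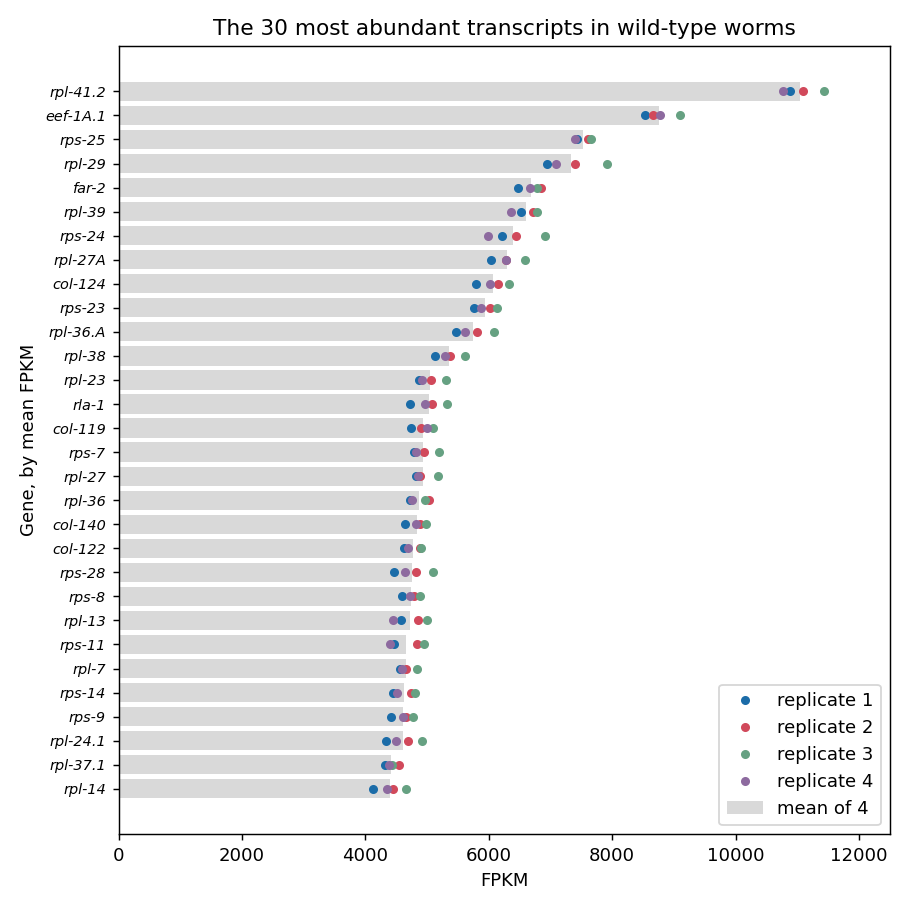
FPKM of the 30 genes with the highest mean in wild-type worms, with grey bars for the mean of 4 replicates and coloured points for each replicate on a linear axis from 0. *rpl-41.2* stood alone with a mean of 11042 FPKM, and from the third gene down the points of most neighbouring genes overlapped.

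Genes of several other kinds stood among the ribosomal proteins in the ranking. *rplp-2.1*, an acidic stalk protein of the ribosome that its symbol kept out of the ribosomal class, was at 3847 ± 150.5 FPKM. *Y82E9BR.3*, a gene with a sequence name only, was at 4062 ± 66.5 FPKM. The nucleoside diphosphate kinase *ndk-1* was at 3238 ± 35.8 FPKM, the mitochondrial ADP/ATP carrier *ant-1.1* at 3252 ± 78.6, and the peptidyl-prolyl isomerase *cyn-7* at 3123 ± 20.0. The yolk protein gene *vit-6* reached 2977 ± 88.6 FPKM and the invertebrate lysozyme *ilys-5* 2359 ± 140.

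By function, the 85 cytosolic ribosomal protein genes took 28.7% ± 0.535 of the FPKM (SD, n = 4), with 28.1% in the lowest replicate and 29.2% in the highest. All of these genes were above 0 in every replicate and 79 had a mean of at least 1000 FPKM. The exceptions included paralogs such as *rpl-24.2* at 135 ± 5.27 FPKM, and the lowest gene was *rpl-42* at 2.76 ± 1.19. Cuticle collagens were the next class at 5.89% ± 0.1517. Their share came from a small part of the family, since 21 of 176 collagen genes had a mean of at least 1000 FPKM and 8 were listed at 0 in all 4 replicates. Near-identical collagens can share reads, so single members such as *col-129* and *col-139*, at 1802 ± 241 and 1788 ± 245 FPKM, are uncertain.

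Energy and protein metabolism came after the collagens. The class of nuclear-encoded respiratory chain and ATP synthase genes held 2.75% ± 0.0260. It was set by symbol, so it includes the carrier *ant-1.1* and leaves out genes with a sequence name only, whatever their function. *ant-1.1* led it, followed by the ATP synthase beta subunit *atp-2* at 1784 ± 52.3 FPKM and the cytochrome c gene *cyc-2.1* at 1639 ± 15.1. Translation factors held 2.47% ± 0.0229 and chaperones 1.94% ± 0.0380. The chaperones were led by *cyn-7*, the embryonic small heat shock protein *sip-1* at 2013 ± 49.2 FPKM and the constitutive HSP70 *hsp-1* at 1942 ± 55.8. Proteasome and ubiquitin genes, the machinery at the centre of the study, held 1.13% ± 0.0379. The polyubiquitin gene *ubq-1* led them at 532 ± 25.8 FPKM, followed by the 20S core subunits *pas-3* at 420 ± 15.3 and *pas-5* at 419 ± 3.16.

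Lipid binding and fatty acid metabolism held 1.79% ± 0.0432 and immune effectors 1.79% ± 0.0973. *far-2* alone was 0.613% of all FPKM. Of the immune genes, the saposin-like *spp-17* was at 2037, 1974, 2612 and 2159 FPKM and *spp-5* at 1385, 1578, 1904 and 1586, both highest in replicate 3. Classes of fewer or lower genes were vitellogenins at 0.705% ± 0.0234, eggshell and egg activation genes at 0.697% ± 0.0252, germline and oocyte RNA regulators at 0.931% ± 0.0355, muscle contractile genes at 1.27% ± 0.0297, and neuropeptide and synaptic genes at 0.174% ± 0.00457. Genes outside every class remained large, with 26.7% ± 0.488 in 9059 other named protein-coding genes and 14.4% ± 0.155 in 8456 known by a sequence name only.

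**Figure D2:**
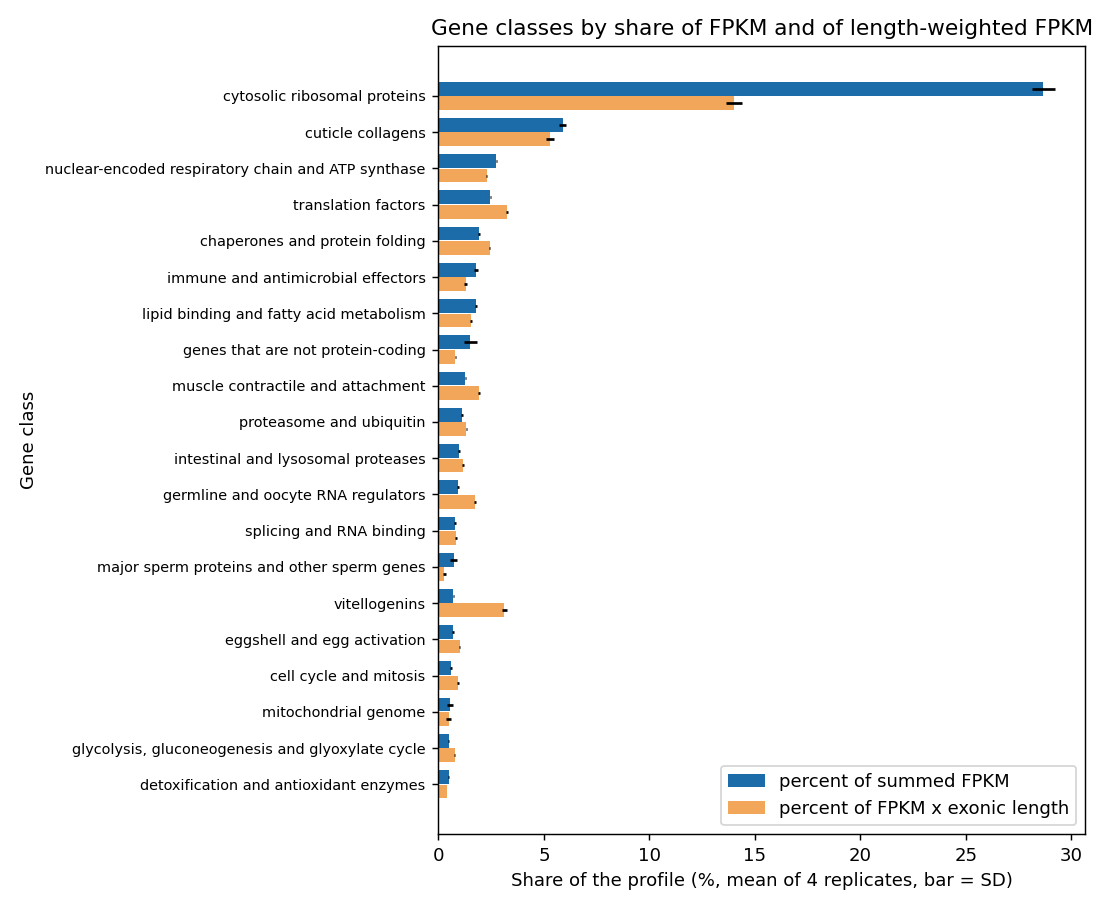
Share of the wild-type profile by gene class (horizontal axis, %), with blue bars for summed FPKM and orange bars for FPKM multiplied by exonic length, as means of 4 replicates with SD. Ribosomal proteins held 28.7% of FPKM and 14.0% of length-weighted FPKM, and vitellogenins 0.705% and 3.12%.

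The share of a class depended on whether transcripts or transcript bases were counted. Multiplying FPKM by the exonic length of each gene in the annotation gives an estimate of its share of fragments. On that scale ribosomal proteins held 14.0% ± 0.390, cuticle collagens 5.29% ± 0.180, translation factors 3.25% ± 0.0416 and vitellogenins 3.12% ± 0.115. The leading gene was then *vit-6* at 1.22% ± 0.0367 of estimated fragments, followed by *eef-1A.1* at 1.09% ± 0.0237, *vit-5* at 0.782% ± 0.0228 and *vit-1* at 0.569% ± 0.0273. Of the 100 leading genes by FPKM, 66 were also among the 100 leading by estimated fragments. The median exonic length was 494.5 bases in the 30 most abundant genes and 1333 bases in all protein-coding genes above 0 in every replicate.

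The yolk protein genes themselves were even between replicates. *vit-6*, whose product is cleaved into the smaller yolk polypeptides, was at 2867, 2952, 3016 and 3073 FPKM. *vit-5* was at 1886, 2030, 2029 and 1982 FPKM and *vit-1* at 1274, 1406, 1435 and 1405. *vit-3* and *vit-4* were at 743 ± 58.8 and 625 ± 55.6 FPKM, and since *vit-3*, *vit-4* and *vit-5* are close copies their separate values are uncertain. *vit-2* was listed at 0 in all 4 replicates. The genes *tbb-2* of beta-tubulin, *skr-1* of a Skp1-related ubiquitin ligase subunit and *vha-13* of the vacuolar ATPase were likewise listed at 0 in all 4, although each reached at least 10 FPKM in a sample of another strain, as did 12 protein-coding genes in all. A listed 0 was thus not read as absence of a transcript. The class shares count *vit-2*, *tbb-2*, *skr-1* and *vha-13* as 0 and may be too low for that reason. The rankings by FPKM and by estimated fragments hold only genes above 0 in all 4 replicates, so these genes have no place in them.

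Some protein-coding genes were listed at 0 in part of the replicates only. There were 22 such genes with at least 10 FPKM in another replicate. *tbb-1*, the other abundant beta-tubulin, was at 655, 0, 684 and 671 FPKM. The meiotic chromosome axis gene *him-3* was at 93.5, 95.7, 0 and 96.98 FPKM, and the HSP70-family exchange factor *hsp-110* at 237, 0, 0 and 0. Of these genes, 17 were above 0 in more than 1 replicate, and in 14 of the 17 the values above 0 lay within 1.25-fold of each other. *etfa-1* and *lsy-22* overlap on opposite strands of chromosome I, and both were listed at 0 in replicate 4 alone, with 241 to 268 and 54.9 to 63.1 FPKM in the others. The zero in *tbb-1* also fell in the class of actins, tubulins and intermediate filaments, whose share was lowest in replicate 2 at 0.400%, against 0.470% in the highest replicate.

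Transcripts that are not protein-coding held 1.52% ± 0.298 of FPKM, from 1.26% to 1.88%. The noncoding RNA *C36C9.10*, of 135 bases on chromosome X at 1681752 to 1681886, was at 3650, 3603, 6114 and 390 FPKM and so ranged 15.7-fold. The ribosomal RNA *rrn-3.1* was at 849, 949, 1026 and 930 FPKM in these poly-A-selected libraries, the lincRNA *lep-5*, which acts in developmental timing, at 202 ± 13.2, and the snoRNA *C14E2.12* at 433 ± 47.7. All 15351 piRNA genes and all 633 tRNA genes were listed at 0.

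Marker lists gave the levels of transcripts taken as tissue markers, not all of them restricted to a single tissue. In whole worms, fewer cells of a tissue and less RNA per cell cannot be told apart, so these values are levels and not tissue sizes. Of the 19 intestine markers matched, all were above 0 in every replicate and their summed FPKM was 8003, 8618, 9332 and 8159. The cathepsin-like proteases *asp-1* and *cpl-1* led them at 1965 ± 165 and 1734 ± 124 FPKM. The 18 body wall muscle markers summed to 9665, 10434, 10309 and 9732 FPKM. They were led by troponin C *pat-10* at 2072 ± 141 and the myosin light chains *mlc-2* and *mlc-3* at 1621 ± 56.6 and 1360 ± 53.4. Tropomyosin *lev-11*, which was also on the list of gonadal sheath and spermatheca markers, followed at 1132 ± 32.6. Neuron markers were much lower, with all 22 above 0 and a sum of 486, 475, 466 and 462 FPKM. Synaptobrevin *snb-1*, at 155 ± 9.86 FPKM, led them, and the neuropeptide processing genes *sbt-1* and *egl-21* were at 45.4 ± 1.60 and 40.3 ± 2.45. The 17 pharynx markers matched summed to 289, 310, 281 and 263 FPKM, led by the troponins *tni-4*, *tnt-4* and *tnc-2*. Of these 17, 6 had a mean below 1 FPKM. *phat-5* was listed at 0 in all 4 replicates, and *phat-1*, *abu-6*, *abu-7* and *abu-8* in some. The 5 coelomocyte markers summed to 15.1, 15.9, 14.4 and 14.999 FPKM.

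The labelled adult stage was set beside germline markers, and male markers were read because the labels give no sex. The 32 oocyte and germline markers summed to 13306, 12837, 13297 and 13667 FPKM, the highest sum of any marker list. A sum also depends on the length of a list. The median member was at 273 FPKM here, against 349 FPKM in the 18 body wall muscle markers. The eggshell protein *cpg-2* was at 1398, 1331, 1370 and 1395 FPKM, the permeability barrier protein *perm-2* at 1326, 1284, 1361 and 1312, and the germline RNA helicase *cgh-1* at 1206, 1166, 1180 and 1181. These 3 genes were close in all replicates. The adult-specific cuticle collagen *col-19* was at 2139, 2303, 2400 and 2330 FPKM. The 15 male-specific and male-enriched genes summed to 2.24, 3.53, 2.90 and 2.85 FPKM, and 14 of them had a mean below 1 FPKM. The highest was the Hox gene *mab-5*, which is not restricted to males, at 1.23 ± 0.200 FPKM.

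Chemoreceptors, the large receptor families of sensory neurons, were mostly low or listed at 0. Of 1310 chemoreceptor genes, a list drawn up by family symbol after the values were seen, 653 (49.8%) were listed at 0 in all 4 replicates, against 9.84% of all protein-coding genes, 1297 had a mean below 1 FPKM and the whole list summed to 129, 129, 139 and 131 FPKM. Only *sri-40* and *srv-1* reached a mean of 10 FPKM, at 37.8 ± 4.25 and 11.7 ± 0.389. Of 269 nuclear hormone receptor genes, 29 (10.8%) were listed at 0 in all 4, close to the share of all protein-coding genes, and 24 (8.92%) reached a mean of 10 FPKM, against 36.7% of all protein-coding genes. Of 322 F-box genes of the *fbxa*, *fbxb* and *fbxc* families, 29 (9.01%) were listed at 0 in all 4, again close to that share, and 12 (3.73%) reached a mean of 10 FPKM.

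Enzymes of branched-chain amino acid breakdown, the pathway of the study, were measured in wild-type worms for 22 of the 26 listed. All 22 were above 0 in every replicate and 21 had a mean of at least 10 FPKM. The acyl-CoA dehydrogenase *acdh-1* was the most abundant at 1314, 1358, 1196 and 1324 FPKM, followed by the enoyl-CoA hydratase *ech-6* at 737, 767, 633 and 773 and the methylmalonate semialdehyde dehydrogenase *alh-8* at 717, 748, 651 and 717. Replicate 3 was the lowest sample in each of these 3 genes and in the summed list, which was at 5874, 5985, 5303 and 5878 FPKM. The isovaleryl-CoA dehydrogenase *ivd-1* was at 224, 230, 206 and 209 FPKM, the branched-chain aminotransferase *bcat-1* at 141.8, 144.7, 123.3 and 128.6, and the ubiquitin ligase *hecd-1* at 33.7, 32.9, 32.8 and 32.3.

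The replicates were close for most genes. Spread was taken as the SD over 4 replicates of log2(FPKM + 0.5) in the 8986 genes with a mean of at least 5 FPKM and a value above 0 in each replicate. The median SD was 0.08 on the log2 scale, the median coefficient of variation 5.45%, and 6942 genes (77.3%) stayed within 1.25-fold from lowest to highest replicate. A range of 2-fold or more was found in 308 genes, which is 3.43% of those ranked. The spread was wider in low genes, with a median SD of 0.22 in 3622 genes from 1 to 5 FPKM, 0.15 from 5 to 10, 0.09 from 10 to 30, 0.06 from 30 to 100 and 0.06 from 100 to 1000. Of the 1483 genes with a mean of at least 100 FPKM, 17 (1.15%) ranged 2-fold or more.

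Among genes with a mean of at least 100 FPKM, the 10 with the smallest SD hardly differed between replicates. *ran-3*, the nucleotide exchange factor of the Ran GTPase, was at 139.1, 138.8, 138.4 and 138.2 FPKM. *ucr-2.3*, a subunit of respiratory complex III, was at 138.0, 138.1, 137.5 and 138.7 FPKM. *pdha-1* of pyruvate dehydrogenase, the HSP90 co-chaperones *sti-1* and *sgt-1*, the isomerase *cyn-7*, the hexosamine pathway enzyme *gfat-1*, *ndab-2*, *C16A3.5* and *F44E7.4* completed the 10. The coefficient of variation of these 10 lay between 0.293% and 0.663%.

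Cuticle collagens stood out among the variable genes. Of 77 ranked collagens, 38 (49.4%) ranged 2-fold or more, against 3.43% of all ranked genes, and in all 38 replicate 1 was the highest sample. Over all 308 genes with such a range, replicate 1 was the highest in 110 (35.7%). Replicate 4 was the lowest in 34 of the 38 collagens and in 176 (57.1%) of the 308 genes. Collagens made up 33 of the 100 genes with the largest SD. *col-88* was at 31.1, 2.23, 1.15 and 1.04 FPKM, *col-161* at 56.6, 5.70, 3.55 and 2.52, and *col-145* at 31.5, 2.01, 3.02 and 1.13. *col-162* was at 34.3, 3.04, 2.20 and 1.59 FPKM, *col-77* at 53.2, 7.15, 4.69 and 3.18, and *col-73* at 50.6, 10.9, 8.58 and 3.40. In each of these 6 genes replicate 1 was far above the other 3. *dpy-13*, *dpy-5* and *dpy-4*, collagens whose mutants are short and fat, were at 29.5, 29.2 and 30.2 FPKM in replicate 1, and at no more than 6.83, 7.61 and 6.62 FPKM in the others.

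The abundant collagens did not share this pattern. The 21 collagens with a mean of at least 1000 FPKM summed to 56040, 61504, 62387 and 59197 FPKM, and replicate 1 was the lowest sample for 16 of them and the highest for 0. Their median SD was 0.09. The 9 collagens from 100 to 1000 FPKM summed to 3360, 3802, 3594 and 3343. The 30 collagens from 10 to 100 FPKM summed to 1318, 741, 562 and 484 FPKM with a median SD of 0.83, and 27 were highest in replicate 1. The 53 from 1 to 10 FPKM summed to 482, 151.8, 120 and 93.9 FPKM with a median SD of 0.92, and 46 were highest in replicate 1. Of all ranked genes, 28.2% were highest and 20.6% lowest in replicate 1. Part of the 53 lay below the 5 FPKM limit of that ranking. The adult gene *col-19* was lowest in replicate 1, while *col-10*, at 24.2, 11.8, 8.89 and 8.84 FPKM, was highest there.

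**Figure D3:**
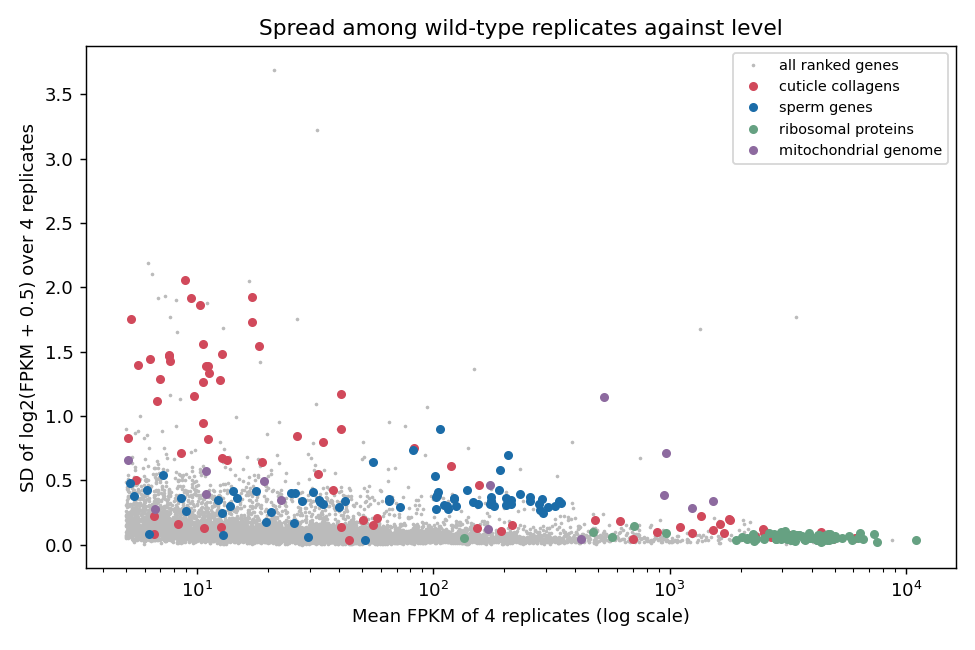
SD of log2(FPKM + 0.5) over 4 wild-type replicates (vertical axis) against mean FPKM (horizontal axis, log scale) for 8986 genes, with 4 gene classes in colour. Collagens split into a variable group below about 100 FPKM and a steady group at 1000 FPKM and above, and ribosomal proteins lay along the bottom.

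Genes that were particular to replicate 1 were few and mostly collagens. In 39 ranked genes (0.434%) replicate 1 was at least 2-fold above every other replicate, and 27 of these were collagens. The others were 9 genes with a sequence name only, *ram-2* and 2 genes that are not protein-coding. Several of the 9 were neighbours. *R12E2.7*, *R12E2.14* and *R12E2.15* lie within chromosome I 4148832 to 4154452 and were at 22.8, 23.7 and 25.6 FPKM in replicate 1, with at most 0.958, 1.35 and 2.12 FPKM in the others. *Y47D7A.13* and *Y47D7A.15* on chromosome V, at 4431695 to 4435927, were at 25.03 and 27.4 FPKM in replicate 1, with at most 2.15 and 2.65 in the others. *C02E7.6* and *C02E7.7*, also on chromosome V at 4918136 to 4919591, were at 39.0 and 54.5 FPKM in replicate 1 and at most 6.29 and 6.56 in the others. *F41F3.3* was at 82.4, 11.9, 6.49 and 5.35 FPKM, and *Y48G8AL.12* at 37.1, 2.62, 1.91 and 2.51.

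Molting genes other than collagens were low. The 24 on the list summed to 111, 97.01, 92.8 and 92.1 FPKM, highest in replicate 1. Of the 23 that were above 0 in every replicate, 16 were highest there, against 28.2% of all ranked genes. Only 5 of the 24 were themselves ranked, so that share comes from higher genes than most of the list. The leading members of the list, the nuclear receptor *nhr-23* and the astacin protease *nas-37*, were at 31.1, 28.7, 27.9 and 31.3 FPKM and at 13.9, 16.999, 15.2 and 14.4 FPKM. These 2 most abundant members were flat, but 11 of the 23 ranged 2-fold or more, all with a mean of at most 2.48 FPKM, and 10 of the 11 were highest in replicate 1. Among all 6652 protein-coding genes above 0 throughout with a mean under 5 FPKM, 43.6% ranged 2-fold or more, and 35.1% of those were highest in replicate 1. The hedgehog-related *wrt-10* was at 1.94, 0.493, 0.210 and 1.03 FPKM, the lipocalin-related *lpr-3* at 1.69, 0.292, 0.402 and 0.496, and *mlt-8* at 4.11, 2.53, 1.92 and 1.35. The part of the molting markers in the collagen values was not tested.

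Sperm transcripts also varied, and replicate 2 was their highest sample. The 41 sperm markers summed to 4539, 7206, 5892 and 4343 FPKM, a 1.66-fold range, and 39 of the 41 were highest in replicate 2, as were 20.5% of all ranked genes. Most of this sum comes from major sperm proteins, the cytoskeletal proteins that drive sperm crawling and signal to oocytes. *msp-36* was at 287, 435, 394 and 277 FPKM, *msp-152* at 283, 438, 375 and 267, and *msp-59* at 297, 438, 308 and 271. *msp-19*, at 96.99, 293, 246 and 195 FPKM, and *msp-65*, at 104.1, 153, 131 and 37.9, varied more than the family. These genes are near-identical in sequence, so the division of fragments among them is uncertain while the family sum is less so. Of the 40 abundant genes with the largest SD, 18 were sperm genes, which made up 37 (2.49%) of the 1483 abundant genes, and all 18 were highest in replicate 2.

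Oocyte and embryo transcripts varied in other ways. The oocyte and germline list ranged 1.06-fold, lowest in replicate 2, and 20 of its 31 members above 0 throughout were highest in replicate 4, against 26.2% of all ranked genes. Replicate 2 was the lowest sample for 35.0% of all ranked genes. The 29 matched embryo markers, genes that are mostly switched on in the zygote, summed to 279, 224, 234 and 262 FPKM and were also lowest in replicate 2. Of the 25 above 0 throughout, 18 were highest in replicate 1, against 28.2% of all ranked genes. Only 7 of the 29 were themselves ranked, so that share comes from higher genes than most of the list. *skr-10* was at 21.4, 9.27, 14.7 and 17.5 FPKM and the early zygotic receptor gene *nhr-2* at 13.1, 8.43, 8.89 and 12.7. The homeobox gene *pal-1*, whose transcript is also loaded into oocytes, led the list at 103, 92.4, 93.4 and 99.6 FPKM. Cell cycle genes held 0.599% ± 0.0352 of FPKM, led by cyclin B *cyb-3* at 642, 559, 607 and 652 FPKM, again lowest in replicate 2.

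**Figure D4:**
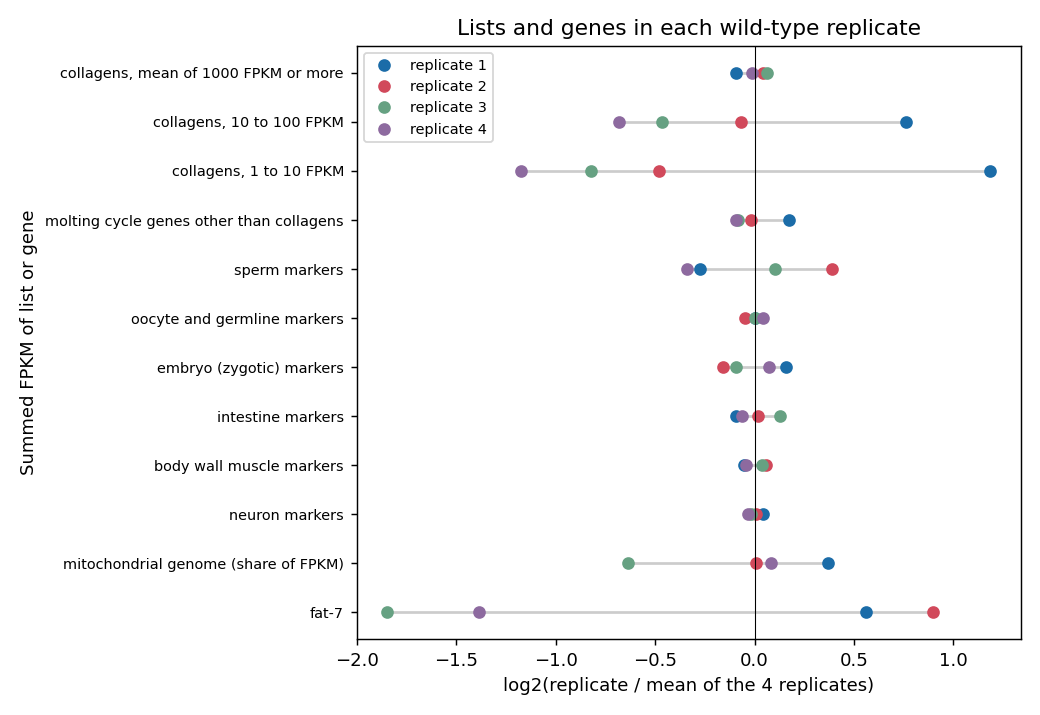
Level of each list or gene in each wild-type replicate relative to the mean of the 4 (horizontal axis, log2), with 1 coloured point per replicate and a grey line over the range. Collagens under 100 FPKM were highest in replicate 1, sperm markers in replicate 2, mitochondrial transcripts were lowest in replicate 3, and *fat-7* was lower in replicates 3 and 4 than in 1 and 2.

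Transcripts of the mitochondrial genome ranged 2.01-fold as a share of FPKM, with 0.718%, 0.558%, 0.358% and 0.589%. Among 36 genes of that genome, 14 were above 0 in every replicate and 22 were listed at 0. Of its 12 protein-coding genes, 9 were highest in replicate 1 and 7 were lowest in replicate 3. Among all ranked genes, 28.2% were highest in replicate 1 and 18.4% lowest in replicate 3. *ATP6*, of ATP synthase, was at 926, 468, 143 and 576 FPKM, *COX2*, of cytochrome c oxidase, at 1268, 1049, 428 and 1109, and *COX3* of the same complex at 1926, 1524, 1089 and 1544. *ND1*, whose annotated end overlaps the start of *ATP6*, was steady at 436, 406, 417 and 423 FPKM. The complex I genes *ND2*, *ND3* and *ND6* went the other way and were highest in replicate 3, at 3.03, 4.44, 9.33 and 3.56 FPKM, at 19.4, 18.1, 31.5 and 21.99, and at 14.8, 16.04, 31.02 and 15.3. The class of nuclear-encoded respiratory chain and ATP synthase genes was even, with a range of 1.02-fold.

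In lipid binding and fatty acid metabolism, 6 of 79 ranked genes (7.59%) ranged 2-fold or more, against 3.43% of all ranked genes. The genes named here were chosen after their values were seen. *fat-7*, a stearoyl-CoA desaturase of the intestine, was at 220, 278, 41.4 and 57.1 FPKM. Its paralog *fat-6* stayed within 1.33-fold, at 421, 416, 317 and 331 FPKM, and the palmitoyl-CoA desaturase *fat-5* was at 36.9, 37.2, 13.8 and 33.8. *acs-2*, an acyl-CoA synthetase induced by fasting, was at 11.004, 6.33, 1.74 and 3.82 FPKM. All 4 genes were lowest in replicate 3, as were 18.4% of all ranked genes. The metallothionein *mtl-2* was higher in replicates 1 and 2, at 231 and 268 FPKM, than in 3 and 4, at 163 and 146. The glyoxylate cycle gene *icl-1* was at 76.3, 55.2, 35.6 and 46.1 FPKM.

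The remaining abundant genes with the largest SD were mostly short or without a symbol. *F23A7.4*, a short gene on chromosome X at 16212606 to 16212812, was at 1580, 1784, 170 and 1857 FPKM. Its neighbour *F23A7.8*, at 16213373 to 16213576 on the same strand, was at 1866, 1846, 2292 and 2225 FPKM. The noncoding RNAs *F56D12.10* and *T27A10.8* were highest in replicate 3, at 651, 661, 1289 and 412 FPKM and at 234, 260, 772 and 284. *T27A10.8* overlaps *vit-3* on the other strand. *T22B7.7* was at 84.4, 247, 149 and 82.0 FPKM, highest in replicate 2. Among ranked genes of any level, 4 were at least 2-fold above every other replicate in replicate 2. They were the short-chain dehydrogenase *dhs-26*, at 14.7, 46.3, 18.5 and 9.27 FPKM, and the fidgetin-like gene *figl-1*, at 19.7, 62.1, 20.0 and 21.6. The others were *C49H3.12*, at 6.06, 23.7, 1.76 and 1.59 FPKM, and *WBGene00014857*, which is not protein-coding, at 43.2, 98.9, 31.3 and 29.3. The lectin gene *clec-67* was highest in replicate 3 at 3.73, 5.24, 13.9 and 6.28 FPKM. In 0 genes was replicate 4 at least 2-fold above every other replicate, while 18 genes, 9 of them collagens, were at least 2-fold below in it.

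The same measure was then read in the strains that the ranking did not use. It covered 8938 genes above 0 in all 20 samples and with a mean of at least 5 FPKM in wild-type. That limit was set in wild-type only, so genes that were low in another strain stayed in. Spearman's rho between the SD in wild-type and the mean SD of the other 4 strains was 0.679. The points share the FPKM level and transcript length, on which the spread depends. Wild-type had a median SD of 0.08, against 0.10 in *hecd-1(tm2371)*, 0.09 in *ivd-1(tm6784)*, 0.12 in the double mutant and 0.14 in *bcat-1(hh58)*.

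Lists that varied in wild-type varied elsewhere, and the replicate numbers did not line up in the same way for each. The steadier oocyte and germline list also varied elsewhere, ranging 1.14-fold to 1.42-fold in the other strains against 1.06-fold in wild-type. The 23 collagens with a wild-type SD of at least 1 summed to 731, 156, 112.5 and 60.5 FPKM in wild-type, and to 1159, 1066, 211 and 203 in *hecd-1(tm2371)*. They were at 3236, 5669, 2727 and 4420 FPKM in *ivd-1(tm6784)* and at 6356, 3299, 10670 and 5455 in *bcat-1(hh58)*, where replicate 3 was the highest. The double mutant had 2376, 1946, 1133 and 1301. This sum ranged 12.1-fold in wild-type, whose SD was used to select the genes, and 2.08-fold to 5.72-fold in the other strains. The wild-type sum was below that of each other strain in every same-numbered replicate. The 31 major sperm protein genes were highest in replicate 2 in wild-type, at 4352, 6934, 5678 and 4179 FPKM, and also in *ivd-1(tm6784)* at 5282, 7950, 5573 and 5967. They were highest in replicate 3 in *bcat-1(hh58)* and in replicate 1 in *hecd-1(tm2371)* and the double mutant.

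*fat-7* and the mitochondrial transcripts lined up more closely by number. *fat-7* was higher in replicates 1 and 2 than in replicates 3 and 4 in wild-type, at 220 and 278 against 41.4 and 57.1 FPKM, and in all 4 mutant strains. The smallest range was 1.51-fold in *bcat-1(hh58)*, at 32.8, 34.6, 22.96 and 23.5 FPKM, and replicate 3 was the lowest sample in each strain. The mitochondrial sum was lowest in replicate 3 in wild-type, at 4001 FPKM against 7734 in replicate 1, and in 3 of the other 4 strains, while *ivd-1(tm6784)* was lowest in replicate 2. *F23A7.4*, low in replicate 3 of wild-type, was at 1227 to 1384 FPKM in *ivd-1(tm6784)* and at 357, 305, 1326 and 1063 FPKM in the double mutant. *C36C9.10*, low in replicate 4 of wild-type, was listed at 0 in 1 sample of *bcat-1(hh58)*, and stood at 218 to 3929 FPKM in *ivd-1(tm6784)* and at 599 to 4896 FPKM in *hecd-1(tm2371)*. The labels give no date or lane. The study states that replicates came from independent experiments, but not whether the same number in different strains was the same experiment.

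**Figure D5:**
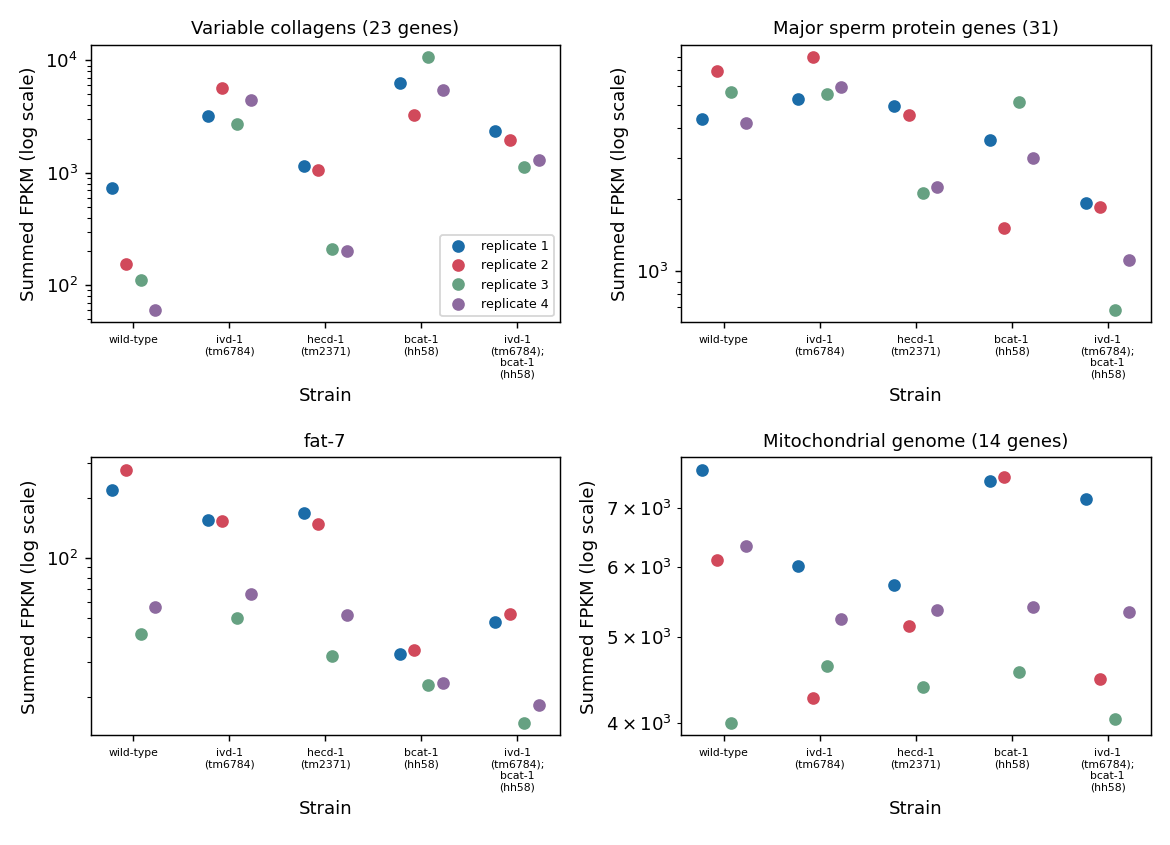
Summed FPKM (log scale) in each replicate of wild-type and of the 4 mutant strains for the 23 collagens with a wild-type SD of at least 1, 31 major sperm protein genes, *fat-7* and 14 mitochondrial genes, with 1 coloured point per replicate. *fat-7* was higher in replicates 1 and 2 in all 5 strains, while the order of the collagen and sperm points differed between strains.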

How the data were processed

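The authors aligned the reads with Tophat2 in the QuickNGS pipeline and estimated FPKM per gene and sample with Cufflinks2 on an Ensembl annotation, and the deposited FPKM table was used as it stands. Whether the estimate used the strand is not given in the sources used here. Cufflinks can fail for a gene and list it at 0, and it divides fragments between near-identical genes. A further 11 columns held no header and no values. The 20 samples are 5 strains with 4 replicates, and all 4 wild-type samples were described, with no test because the description concerns 1 group. Gene names, exons and positions came from Ensembl release 115 of WBcel235, in which 46109 of 46284 IDs matched, and 373 symbols by locus tag and 12 by mitochondrial position came from RefSeq on the same assembly.

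Genes were put into 27 classes by symbol, each gene in the first class it matched, plus classes for the mitochondrial genome, for other biotypes and for the rest, and 16 marker lists were read separately. Genes named were drawn from several sets, and not every member of a set is named. The sets were the 30 highest by mean, the 3 highest of each class and list, and the highest of each biotype. They also held the 25 with the largest SD at a mean of at least 5 FPKM. At a mean of at least 100 FPKM they held the 10 with the largest and the 10 with the smallest SD. Protein-coding genes listed at 0 in some replicates and at 10 or more in others were a further set. Further genes, and the lists of chemoreceptors, nuclear hormone receptors, F-box genes and major sperm proteins, were chosen after the values were seen, and all members and lists were chosen with earlier results of these data known. The collagens followed into the other strains were selected by their wild-type SD. Shares are percent of summed FPKM in a replicate. A symbol carried by more than 1 gene ID was read in the first. Alternatives were the median, exonic length, protein-coding genes only, low-value limits of 1 and 20 FPKM, other pseudocounts and scalings, and leaving out each replicate. The spread measure was tested on simulated data. Python 3.11.15, pandas 2.3.3, numpy 2.4.6 and matplotlib 3.10.9 were used. No DNA or protein sequence was used here.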

Additional observations from a re-analysis of the deposited data

Results flagged for a closer look

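In 33 of 275 values examined over the 4 wild-type replicates, the gap between 1 replicate and its nearest neighbour took up more of the whole range than Dixon's 95% critical value for 4 samples allows. Chance alone gives about 1 in 20 such groups, and many of these genes were chosen for their spread, so their number is not a result. The gap is given below as a fraction of the range.

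Replicate 1 stood above the other 3 in the sums of collagens from 1 to 10 FPKM, with 0.851, and of collagens below 1 FPKM, with 0.847. Among single collagens the fraction was 0.842 for *col-73*, 0.941 for *col-161*, 0.921 for *col-77*, 0.881 for *col-138*, 0.842 for *col-146*, 0.956 for *col-162*, 0.938 for *col-145*, 0.96 for *col-88*, 0.932 for *col-14* and 0.956 for *col-60*. Among other genes it was 0.856 for *ram-2*, 0.915 for *F41F3.3*, 0.903 for *C02E7.7*, 0.888 for *C02E7.6*, 0.98 for *Y48G8AL.12*, 0.937 for *Y47D7A.15*, 0.976 for *R12E2.15*, 0.953 for *Y47D7A.13*, 0.984 for *R12E2.14* and 0.976 for *R12E2.7*.

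Replicate 2 stood below the others in the share of actins, tubulins and intermediate filaments, with 0.925, where *tbb-1* was listed at 0. It stood above them in *figl-1*, with 0.956. Replicate 3 stood below the others in the summed branched-chain amino acid enzymes, with 0.837, and nuclear hormone receptors, with 0.859. The same held for *fat-5*, with 0.855, and *F23A7.4*, with 0.836. It stood above them in the translationally controlled tumour protein gene *tct-1*, with 0.85, in *T27A10.8*, with 0.908, in *ND6*, with 0.925, and in the molting peroxidase *mlt-7*, with 0.874. Replicate 4 stood above the others in *sgt-1*, with 0.85, although that gene was among the 10 steadiest abundant genes.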

How the results depend on the processing

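No paired analysis was possible because the description covers 1 group and no test between groups was run. Weighting FPKM by exonic length kept 66 of the 100 most abundant genes, 46 of them ribosomal rather than 74, and gave shares of 14.0% for ribosomal proteins and 5.29% for collagens. Without the 10 most abundant genes these shares were 25.7% and 5.71%. At a mean of at least 1 FPKM, 1209 genes ranged 2-fold or more in place of 308, and 94 were 2-fold above in replicate 1 in place of 39. At a mean of at least 20 FPKM these counts were 74 and 5, and 9 collagens stood among the 100 largest spreads in place of 33. Leaving out collagens, an alternative chosen after seeing the data, left 12 genes particular to replicate 1. Restricting to protein-coding genes was also added then and left 268 and 37. Leaving out each replicate in turn gave 184 to 261 genes with a 2-fold range (184 without replicate 2, 187 without replicate 4), 49 to 61 genes particular to replicate 1 (61 without replicate 2) and 8 to 38 collagens among the 100 largest spreads, with 8 without replicate 1. It kept 99 to 100 of the most abundant genes, 73 to 75 of them ribosomal, ribosomal shares of 28.5% to 28.9%, collagen shares of 5.84% to 5.95%, and sperm sums of 4925 to 5879 FPKM with ranges of 1.36-fold to 1.66-fold. For a given gene, leaving out a replicate can only narrow the range. Leaving out a replicate other than 1 can only ease being 2-fold above in replicate 1. Part of the change in these 2 counts was thus fixed in advance. The other alternatives, of the median, pseudocounts, scalings, zeros kept, and the coefficient of variation, moved counts by less than 1.5 times. With the read depth unknown, genes near 5 FPKM are the least certain.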
